A study of Mus musculus with 24 samples.

Results

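The comparison described here is the step from 8 h to 12 h after lights on in the distal nephron of the mouse, that is, from the later light phase to the moment of lights off. Times are zeitgeber times (ZT), counted in hours from lights on at ZT0. The members were chosen by their labels alone: the 4 arrays labelled ZT12 (2 pools of distal convoluted and connecting tubules, DCT/CNT, and 2 pools of cortical collecting ducts, CCD) were set against the 4 arrays labelled ZT8 (also 2 pools of each segment). These are 8 of the 24 arrays of the series, which sampled both segments at 6 times, 4 h apart. All groups came from male C57BL/6J mice of 25 to 30 g on standard chow, held on a cycle of 12 h light and 12 h dark over 2 weeks, with no disturbance in the last 3 days. Tubules were dissected by hand from the left kidney after collagenase treatment. RNA of 5 animals per time was pooled, and each hybridisation started from 10 ng of total RNA, which was amplified. It is not stated if the pair of pools in a group shares its mice, or if both segments were dissected from the same ones. P-values here therefore measure the spread between pools, which may be technical.

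Every value is an RMA value on the log2 scale, in which 1 unit is a 2-fold difference. Each of 18194 genes is represented by its brightest probe set, and probe sets of different genes differ in affinity, so only values of the same gene were compared. Differences are ZT12 minus ZT8, with the standard error (SE) of the limma fit.

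The distal convoluted tubule, connecting tubule and collecting duct set the final content of sodium, potassium, calcium, acid and water in the urine, and these tasks are known to vary over the day. Cells carry a molecular clock in which BMAL1 (encoded by Arntl) pairs with CLOCK or NPAS2 and switches on genes through E-boxes. The products of the Per and Cry genes block this pair, the nuclear receptors of the REV-ERB and ROR families repress or activate Arntl and Npas2, and the PAR bZIP factors DBP, TEF and HLF carry the rhythm to further genes. Hormones and feeding rhythms also act on tubule cells around the start of the active phase of the mouse.

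The labels were first set against segment markers over the 12 arrays of each segment. Slc12a3, the thiazide-sensitive sodium chloride cotransporter of the distal convoluted tubule, had a median of 11.35 in DCT/CNT (lowest 8.48, highest 12.09) and of 5.33 in CCD (lowest 4.48, highest 6.01). The reverse order was found for Aqp4, a basolateral water channel of principal cells, with a median of 8.17 in DCT/CNT (lowest 7.64, highest 8.64) and 11.58 in CCD (lowest 11.28, highest 12.05). Aqp2, the vasopressin-regulated water channel, had medians of 7.96 and 10.26, and the arrays of the segments did not overlap for these 3 genes. The markers were distributed as the segment labels say.

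Levels of proximal tubule markers differed between the times. Over 19 measured proximal tubule genes, the mean value per pool was 7.07 and 7.11 in the ZT8 pools of DCT/CNT and 8.44 and 8.42 in the ZT12 pools. In CCD it was 8.34 and 7.16 at ZT8 and 8.61 and 7.64 at ZT12. The proximal tubule genes were thus higher at ZT12 without overlap in DCT/CNT, while the CCD pools overlapped. Of the 19, 17 were higher at ZT12 without overlap of pools in DCT/CNT (22.6% of all genes were) and 3 in CCD (16.5% of all genes). Examples are Lrp2, the endocytic receptor megalin, with a difference of 1.08 ± 0.20 (SE) over both segments, and Pck1, the gluconeogenic enzyme, with 1.94 ± 0.43.

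Markers of the segment itself did not all differ alike. Of 17 measured DCT/CNT marker genes, 7 were higher and 0 lower in DCT/CNT at an unadjusted p under 0.05, where 6.17% and 3.67% of all genes were, and the median difference there was 0.18, against 0.025 over all genes. In 12 the ZT12 pools of DCT/CNT were higher without overlap and in 2 they were lower (22.6% and 15.6% of all genes). S100g, a calcium-binding protein of the connecting tubule, had means of 13.31 and 13.47 in DCT/CNT at ZT8 and ZT12, and Slc8a1, the sodium calcium exchanger, of 10.14 and 9.90. The differences were large in Slc12a3 and Pvalb. Slc12a3 read 9.61 and 9.44 in the ZT8 pools of DCT/CNT and 11.32 and 12.08 in the ZT12 pools, a difference of 2.17. Pvalb, the calcium-binding protein of the early distal convoluted tubule, read 6.17 and 6.20 at ZT8 and 9.08 and 9.99 at ZT12. Over the 6 times, both genes had their lowest DCT/CNT mean at ZT8 and their highest at ZT12. The mean of the whole marker list in DCT/CNT was 10.24 at ZT8. At the other times it lay between 10.67 (ZT16) and 10.83 (ZT20), so the ZT8 pools were the low ones. The thick ascending limb list (9 measured genes) had means of 7.23 and 7.44 at ZT8 and 7.61 and 7.81 at ZT12 in DCT/CNT, and Umod, its abundant secreted protein, was higher by 0.80 ± 0.26 over both segments. In pools of dissected tubules, more or fewer cells of a type cannot be told apart from more or less RNA per cell. The part of these shifts in the results below was not tested other than by the fits with marker levels as covariates.

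**Figure D1:**
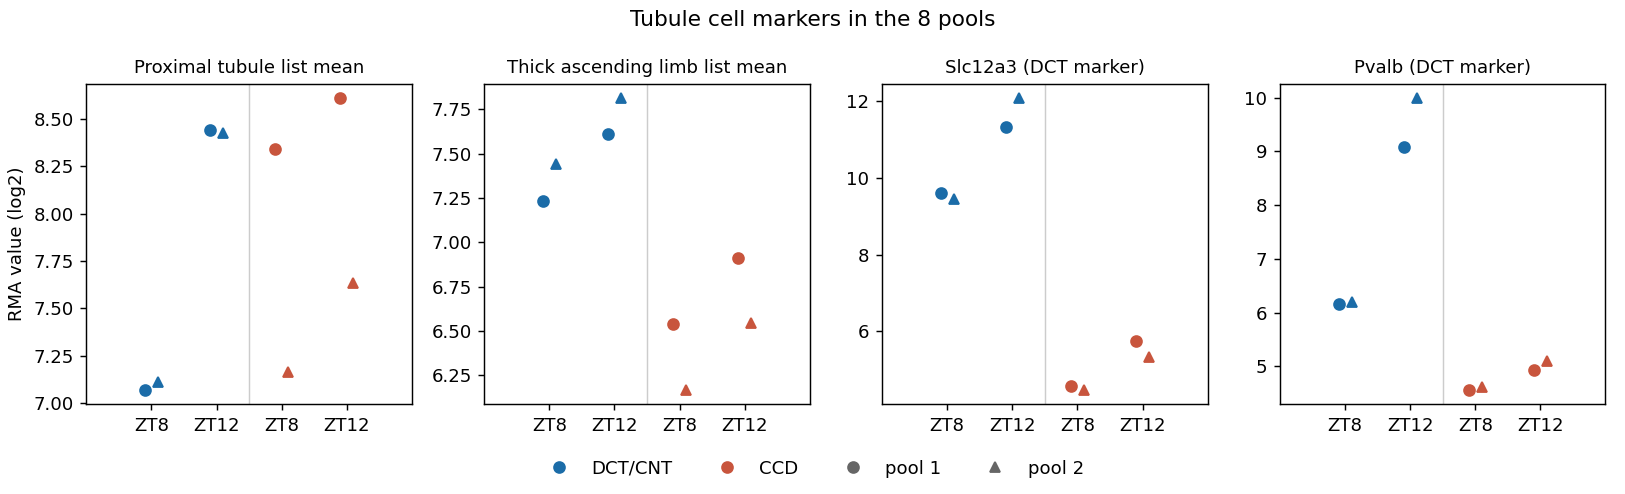
Mean RMA value (log2) of the proximal tubule and thick ascending limb lists and the values of Slc12a3 and Pvalb in each of the 8 pools (circles, pool 1; triangles, pool 2; DCT/CNT left and CCD right of the grey line). In DCT/CNT the proximal tubule mean was 7.07 and 7.11 at ZT8 and 8.44 and 8.42 at ZT12, and Pvalb stood apart in the same way.

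Over both segments, with the segment as a block, 0 genes passed an adjusted p (Benjamini-Hochberg over all genes) under 0.05 in the limma fit of the 8 arrays. The smallest adjusted p was 0.0568, shared by 6 genes: Cry1, Per2, Per3, Tef, Trim14 and Usp2. At an unadjusted p under 0.05 there were 1633 genes (8.98% of those tested), of which 899 (4.94%) were higher at ZT12 and 734 (4.03%) lower. An alternative fit, also with 4 against 4 arrays in the contrast, took the spread between pools from all 24 arrays. It called 68 genes (0.374%), 45 higher (0.247%) and 23 lower (0.126%) at ZT12, and 14 of them (0.0769% of genes tested) differed at least 2-fold. These are the calls meant below by "called in the fit of 24 arrays", and "rose" and "fell" are kept for them.

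The 68 calls depended on single pools. Without pool 2 of CCD ZT8 the fit called 13 genes, without pool 1 of CCD ZT12 it called 28, without pool 2 of DCT/CNT ZT12 37, and without pool 2 of DCT/CNT ZT8 110. With the proximal tubule mean as a covariate, an alternative chosen after seeing the data, 14 of the 68 were still called. All 68 kept their direction in these fits. Of the 14, 9 were also called without any single pool: Cry1, Usp2, Nampt, Coq10b, Akr1c19, Npas2, Avpr1a, Plppr1 and Acsl5. This group of 9 was picked after its values were seen. Equal array medians moved the split of the calls from 45 higher and 23 lower to 36 and 31, and quantile normalisation moved it to 49 and 40. It was 23 higher and 32 lower without pool 1 of DCT/CNT ZT8, 56 and 54 without pool 2 of it, 6 and 7 without pool 2 of CCD ZT8, and 57 and 15 without pool 2 of CCD ZT12. The excess of higher over lower calls thus depended on single pools.

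The negative limb of the clock was higher at ZT12. Of 13 measured repressor genes, 8 were higher and 1 lower at an unadjusted p under 0.05. Over all genes 4.94% were higher and 4.03% lower, which is the background for every list count over both segments. All gene lists were chosen with earlier results of these data known, so such counts are descriptions. The median difference was 0.36, against -0.0031 over all genes. In 8 of the 13 the pools of both segments were higher at ZT12 without overlap, where 4.77% of all genes were. Per2, Per3 and Cry1 rose.

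Cry1, a repressor of the BMAL1 pair, read 6.20 and 6.76 at ZT8 and 8.16 and 7.85 at ZT12 in DCT/CNT. In CCD it read 7.49 and 7.57 at ZT8 and 8.63 and 9.12 at ZT12. All 4 ZT12 pools lay above the ZT8 pools of their segment. The difference was 1.43 ± 0.16 (95% interval 1.06 to 1.81), or 2.70-fold, with an adjusted p of 0.0568 in the limma fit of 8 arrays and 0.00106 in that of 24. Per2, whose product pairs with CRY, read 7.48 and 7.99 against 9.21 and 8.97 in DCT/CNT, and 7.72 and 7.79 against 9.01 and 9.03 in CCD. Its difference of 1.31 ± 0.12 was made up of 1.35 in DCT/CNT and 1.27 in CCD. Per3, the third Period gene, read 6.97 and 6.92 against 7.79 and 8.43 in DCT/CNT, and 8.10 and 8.19 against 9.33 and 9.50 in CCD. It rose by 1.22 ± 0.14, although its adjusted p was 0.0239 in the fit of 24 arrays and 0.187 with the proximal tubule covariate added to it. The other Per3 probe sets gave smaller differences, from 0.36 to 0.81. The probe set with 0.36 gave -0.07 in DCT/CNT.

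The other repressors showed smaller differences that passed no adjusted threshold. Per1 was higher by 0.45 ± 0.12, Cry2 by 0.36 ± 0.09 and Csnk1e, the casein kinase that phosphorylates PER proteins, by 0.47 ± 0.09. The other probe sets of Csnk1e gave smaller differences of 0.09 and 0.20. Nr1d2, encoding REV-ERB beta, was higher by 0.37 ± 0.09, and Nr1d1, encoding REV-ERB alpha, was lower at ZT12 by 0.41 on the log2 scale (-0.41 ± 0.14). The REV-ERB genes thus had opposite signs across the same step, with no overlap of pools in either segment for either gene. Bhlhe40, a repressor that competes for E-boxes, differed by 0.22 ± 0.09, and its paralogue Bhlhe41 by 0.18 ± 0.15. The values were 0.33 ± 0.15 for Ciart, -0.05 ± 0.10 for Csnk1d and 0.06 ± 0.12 for Btrc, the ubiquitin ligase subunit that acts on PER proteins.

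The positive limb was lower. Of 5 measured activator genes, 2 were lower and 0 higher at an unadjusted p under 0.05 (4.03% and 4.94% of all genes). Both of the lower genes fell in the fit of 24 arrays, where 0.126% of all genes did. Npas2, the CLOCK paralogue, read 7.31 and 6.67 at ZT8 and 4.85 and 5.50 at ZT12 in DCT/CNT. In CCD it read 6.68 and 6.22 against 4.81 and 3.86. No pools overlapped, and the difference of -1.97 ± 0.26 (95% interval -2.56 to -1.37) was a 3.91-fold fall, with an adjusted p of 0.0759 in the limma fit of 8 arrays and 0.00319 in that of 24. The other Npas2 probe set, with a mean of 5.56 over the 24 arrays, differed by 0.03. The fall of Npas2 thus rests on the probe set kept. Arntl read 4.90 and 5.57 against 4.56 and 4.15 in DCT/CNT, and 5.25 and 6.08 against 4.16 and 4.58 in CCD. Its ZT8 pools lay far apart within each segment, and its difference was -1.09 ± 0.23. The other Arntl probe set, with a mean of 4.59 over the 24 arrays, gave a smaller difference of -0.27. By segment it gave -0.05 in DCT/CNT and -0.50 in CCD, so the size of the Arntl fall also rests on the probe set kept. Clock differed by -0.21 ± 0.14, Rora by -0.18 ± 0.10 and Rorb by -0.15 ± 0.20, and the intervals of these 3 included 0.

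Clock output genes were higher as a group. Of 12 measured, 8 were higher and 2 lower at an unadjusted p under 0.05 (4.94% and 4.03% of all genes). The median difference was 0.59, and 6 rose in the fit of 24 arrays (Usp2, Tsc22d3, Tef, Tspan4, Nampt and Hlf). The background of rises in that fit was 0.247%. As this list was chosen with earlier results of these data known, the counts describe its members only.

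Usp2, a deubiquitinase that acts on PER1 and on the epithelial sodium channel, read 9.92 and 9.87 against 10.71 and 10.95 in DCT/CNT, and 9.57 and 9.75 against 10.69 and 10.46 in CCD. It rose by 0.93 ± 0.10, or 1.90-fold, and it was called in the fit of 24 arrays without each single pool. Tef, the PAR bZIP factor, had close pools, with 9.34 and 9.41 against 10.01 and 10.11 in DCT/CNT and 9.86 and 9.85 against 10.56 and 10.54 in CCD. Its difference was 0.69 ± 0.08. Its paralogue Hlf read 7.89 and 7.86 against 9.01 and 9.35 in DCT/CNT but 7.28 and 7.62 against 8.08 and 7.55 in CCD, where the pools overlapped. Dbp, the third PAR bZIP gene, was already at 11.94 to 12.43 in the ZT8 pools and was higher by 0.33 ± 0.11.

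Tsc22d3, encoding the glucocorticoid-induced leucine zipper, rose by 0.72 ± 0.12. Nampt, the rate-limiting enzyme of NAD salvage, rose by 0.52 ± 0.09 and Tspan4, a tetraspanin, by 0.66 ± 0.11. Wee1, the kinase that holds back entry into mitosis, was higher by 0.67 ± 0.13 with no overlap in either segment, but was not called (adjusted p = 0.0734 in the limma fit of 24 arrays). Tfrc, the transferrin receptor, was lower in CCD (10.44 and 10.39 against 9.77 and 9.46), while its DCT/CNT pools overlapped. Leo1 differed by -0.31 ± 0.14 and Lonrf3 by 0.09 ± 0.13. Nfil3, the factor that opposes the PAR bZIP group at D-boxes, showed no difference beyond its spread (-0.10 ± 0.37), with DCT/CNT ZT12 pools at 5.04 and 7.01.

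**Figure D2:**
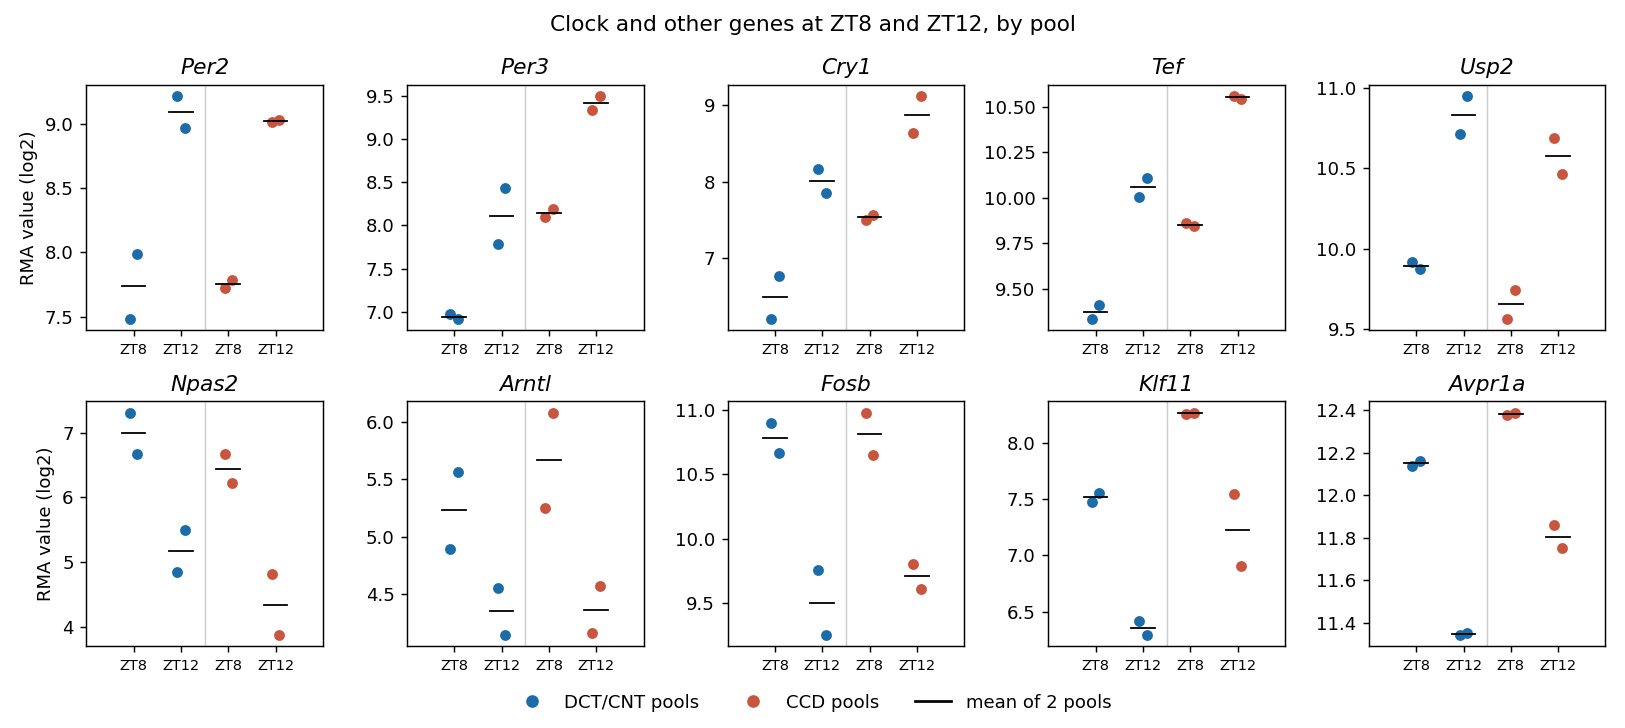
RMA values (log2) of 10 genes in each pool at ZT8 and ZT12, with DCT/CNT in blue and CCD in red (points, pools; bars, mean of 2 pools; each panel has its own axis). In all 10 genes the ZT12 pools of both segments lay on the same side of the ZT8 pools, above for Per2, Per3, Cry1, Tef and Usp2 and below for Npas2, Arntl, Fosb, Klf11 and Avpr1a. The rule for naming the largest changes required this, as for Fosb, Klf11 and Avpr1a. Over all genes, 4.77% were higher and 4.45% lower at ZT12 in this sense.

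Promoter sequence is shown for 5 genes that rose and for Klf11, which fell, because E-boxes and D-boxes are among the elements through which the clock acts. RefSeq promoter windows (GRCm38.p6) were searched over the 250 bases before each transcription start, on both strands. The E-box was CACGTG and the D-box core TTANNTAA. At least 1 E-box was found for 8.73% of the 14453 tested genes with a window, for 7 of the 35 genes with a window that rose (20%) and for 1 of the 19 that fell. The 1 was Klf11, which moved in the other direction from Cry1, Tef, Coq10b and Tspan4. A D-box core was found for 4.78% of genes, for 3 of the 35 that rose and for 0 of the 19 that fell. The stretches are written 5′ to 3′ on the strand of the gene, with the motif in capitals. A match is a description of letters and not a site of binding.
Cry1, chr10:85185069-85185154, minus strand: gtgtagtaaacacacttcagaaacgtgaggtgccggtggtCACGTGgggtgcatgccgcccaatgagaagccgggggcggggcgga
Tef, chr15:81802506-81802591, plus strand: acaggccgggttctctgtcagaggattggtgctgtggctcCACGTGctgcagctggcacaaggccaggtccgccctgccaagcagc
Coq10b, chr1:55052652-55052737, plus strand: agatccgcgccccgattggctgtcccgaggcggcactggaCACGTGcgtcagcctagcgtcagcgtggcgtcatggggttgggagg
Tspan4, chr7:141476289-141476374, plus strand: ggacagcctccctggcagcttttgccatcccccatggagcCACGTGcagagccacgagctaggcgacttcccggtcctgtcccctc
Klf11, chr12:24651121-24651202, plus strand: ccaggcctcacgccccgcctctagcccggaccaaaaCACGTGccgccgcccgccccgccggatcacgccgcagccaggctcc
Per3 (D-box core), chr4:151044776-151044863, minus strand: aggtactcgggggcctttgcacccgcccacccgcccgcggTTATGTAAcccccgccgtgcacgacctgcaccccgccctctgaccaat

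The E-boxes began 60 bases before the start in Cry1, 127 in Tef, 78 in Coq10b, 51 in Tspan4 and 214 in Klf11. The core of the cyclic AMP element, TGACG, was found for 18 of the 35 rising genes (51.4%) and 6 of the 19 falling genes (31.6%), against 25.9% of all. The ROR element core AGGTCA was found for 5 of the 35 and 0 of the 19, against 14.6%, and the heat shock element core GAANNTTC for 2 and 1, against 6.61%. No test was made of these shares.

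Outside the clock lists, the largest rises named by the rule for named genes were in genes with low values at ZT8. Fam107a, an actin-associated and glucocorticoid-inducible gene, read 5.59 and 5.47 against 8.04 and 8.55 in DCT/CNT, and 6.50 and 4.42 against 7.73 and 7.07 in CCD. Its difference of 2.35 ± 0.42 was 5.11-fold. The other Fam107a probe sets gave smaller differences of 1.29 and 1.24. In CCD they gave 0.74 and 0.75, against 1.94 for the probe set kept. Mep1b, a brush border protease subunit, rose by 1.71 ± 0.35, and Sod3, the extracellular superoxide dismutase, by 1.63 ± 0.30. In these 3 genes pool 1 of CCD ZT8 was the higher of its pair, as it was for the proximal tubule mean (8.34 and 7.16). With that mean as a covariate the differences were 1.55, 1.29 and 1.13, and none of the 3 was called.

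Smaller rises came with less spread. Coq10b, which encodes a coenzyme Q binding protein of mitochondria, read 10.93 and 10.99 against 11.65 and 11.59 in DCT/CNT and 11.55 and 11.50 against 12.04 and 12.11 in CCD. It differed by 0.61 ± 0.08, or by 0.57 with the covariate. Akr1c19, an aldo-keto reductase with close paralogues whose transcripts its probes could share, rose by 0.61 ± 0.08, with 10.44 to 10.81 in the 4 ZT8 pools and 10.99 to 11.47 in the 4 ZT12 pools. Trim14, an adaptor of antiviral signalling, rose by 0.89 ± 0.09, and its adjusted p of 0.0568 in the limma fit of 8 arrays was among the smallest. Chac1, which degrades glutathione, rose by 1.06 ± 0.19 from values near the lower end of the scale (4.06 to 4.69 at ZT8).

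Further rises by the naming rule were 1.20 in Cdr2, 0.99 in Nmrk1, a nicotinamide riboside kinase, 0.98 in Mthfd1l, a mitochondrial enzyme of folate metabolism, 0.87 in Zfp458, 0.76 in Ak7, an adenylate kinase, and 0.75 in Tns2, a tensin. Nampt and Nmrk1, which feed NAD synthesis from different precursors, both rose. The other Nmrk1 probe sets gave smaller differences of 0.42 and 0.45. With the proximal tubule covariate Nmrk1 was not called (adjusted p = 0.228 in the limma fit of 24 arrays).

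Among the genes that fell, Fosb, an immediate early AP-1 subunit, read 10.90 and 10.66 against 9.76 and 9.25 in DCT/CNT, and 10.98 and 10.65 against 9.80 and 9.61 in CCD. Its difference was -1.19 ± 0.14, a 2.28-fold fall. Klf11, a Krüppel-like repressor, read 7.48 and 7.56 against 6.41 and 6.29 in DCT/CNT, and 8.26 and 8.27 against 7.54 and 6.91 in CCD. It fell by 1.10 on the log2 scale (SE 0.14), and by 1.34 with the proximal tubule covariate. Both genes had their ZT12 pools below the ZT8 pools in each segment, which the rule for naming the largest changes required.

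Avpr1a, encoding the V1a vasopressin receptor, was the gene with the smallest adjusted p in the limma fit of 24 arrays (0.000549). It read 12.14 and 12.16 against 11.34 and 11.35 in DCT/CNT, and 12.38 and 12.39 against 11.86 and 11.75 in CCD. The 2 pools of each group lay close together, and the difference was -0.69 ± 0.08, a 1.61-fold fall. Per segment, DCT/CNT gave -0.80 and CCD gave -0.58. The highest adjusted p for Avpr1a without any single pool was 0.00604, and with the proximal tubule covariate the difference was -0.65.

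The other falls by the naming rule were in genes of varied function. Armcx4 fell by 1.01 and Armcx1 by 0.70, both armadillo repeat genes of the X chromosome. Plppr1, a phospholipid phosphatase related protein, fell by 0.79, Tcf15, a bHLH factor, by 0.77, and Scamp5, a secretory carrier membrane protein, by 0.72. Kif23, a mitotic kinesin, and Dkk3, a secreted protein of the Dickkopf family, each fell by 0.68. Prkab1, a regulatory subunit of AMP-activated kinase, fell by 0.58, Atp4a, the alpha subunit of the gastric H,K-ATPase, by 0.57, and Mab21l3 by 0.56. Acsl5, a long-chain acyl-CoA synthetase, fell by 0.49. Of the 43 called genes with several probe sets, 32 had all of them on the same side.

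The fall of Avpr1a was not shared by the water transport list. Of its 19 measured genes, 3 were higher and 2 lower at an unadjusted p under 0.05 (4.94% and 4.03% of all genes). The median difference was 0.01. Ptger4, a prostaglandin E receptor, was lower (-0.50 ± 0.15), with DCT/CNT pools at 8.69 and 8.84 against 7.92 and 7.91. Aqp1, a water channel of the proximal tubule and thin limb, was higher by 0.58 ± 0.20, in the direction of the proximal tubule mean. Akap7, an anchoring protein of protein kinase A, was higher by 0.22 ± 0.08. The V2 receptor gene Avpr2 had means of 9.46 and 9.59 at ZT8 and ZT12 in DCT/CNT and of 11.22 and 11.58 in CCD, and Aqp2 had 7.87 and 8.08, and 10.06 and 10.28.

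The principal cell list had a median of 0.11. Of its 16 measured genes, 3 were higher and 0 lower at an unadjusted p under 0.05 (4.94% and 4.03% of all genes). The 3 were Usp2, Tsc22d3 and Sgk1, regulators of the epithelial sodium channel. Sgk1, an aldosterone- and glucocorticoid-induced kinase, read 11.90 and 11.84 against 12.14 and 12.24 in DCT/CNT and 12.78 and 12.66 against 13.12 and 13.03 in CCD. Its difference was 0.34 ± 0.08, and it was not called (adjusted p = 0.195 in the limma fit of 24 arrays). The channel subunits differed less: Scnn1b had means of 10.78 and 10.91 in DCT/CNT and 11.40 and 11.45 in CCD, and Scnn1g 11.54 and 11.49, and 11.90 and 11.92.

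The intercalated cell list had 0 higher and 1 lower of 18 at an unadjusted p under 0.05 (4.94% and 4.03% of all genes). Its medians were -0.17 (DCT/CNT) and -0.06 (CCD). Hmx2, a homeobox factor, differed by -0.37 ± 0.10. Slc4a1, the basolateral anion exchanger of acid-secreting cells, differed by -0.35 in DCT/CNT and -0.06 in CCD.

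**Figure D3:**
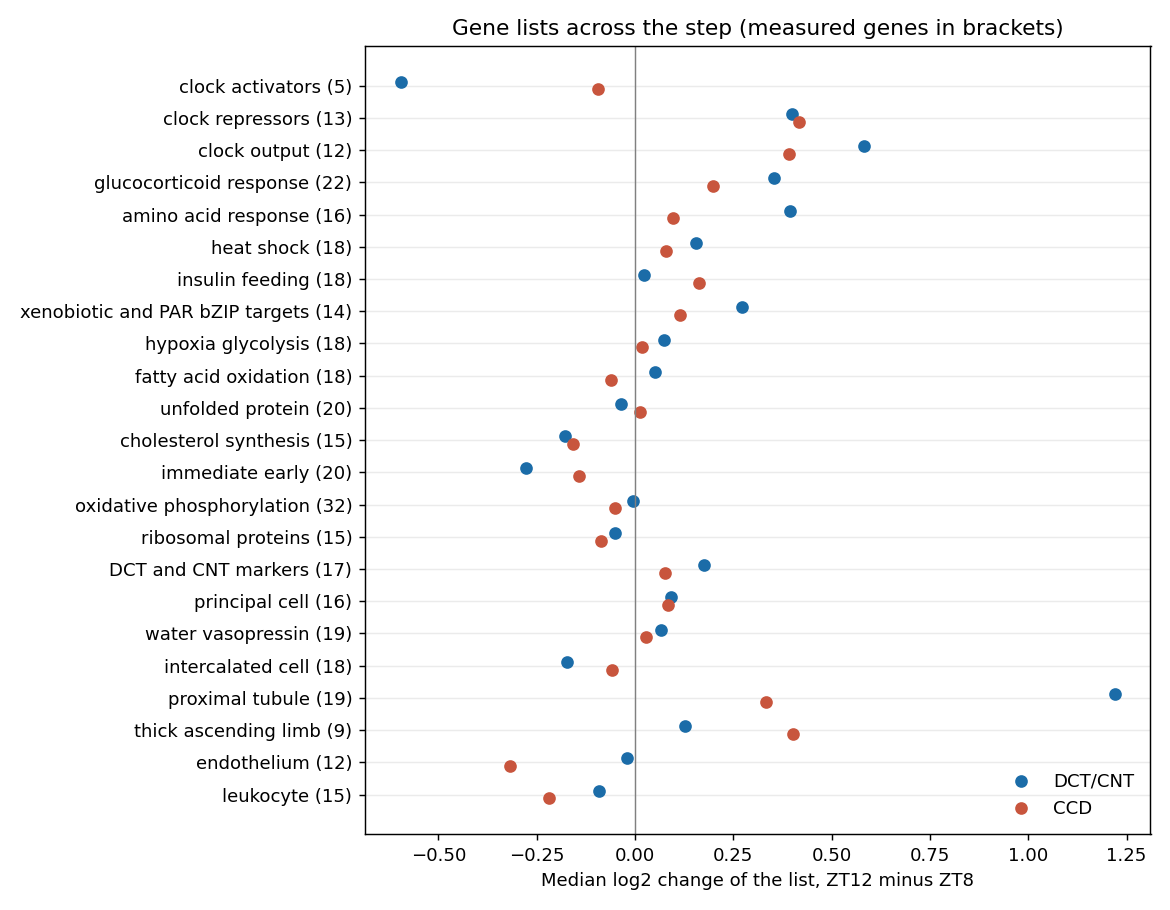
Median difference (log2, ZT12 minus ZT8) of each gene list in DCT/CNT (blue) and CCD (red), with the number of measured genes in brackets; points carry no error because genes of a list are not replicates. The proximal tubule list had the highest median in DCT/CNT (1.22), the clock repressor and output lists were above 0 in both segments, and the activator and immediate early lists were below 0 in both.

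The lists of hormone, stress and feeding responses are read against a background of 4.94% higher and 4.03% lower genes. Of 22 measured genes of the glucocorticoid response list, 10 were higher and 1 lower at an unadjusted p under 0.05, with a median of 0.28. Of these genes, Tsc22d3 was called in the fit of 24 arrays. Klf15, a Krüppel-like factor of amino acid metabolism, was higher by 0.62 ± 0.11, Cebpd, a bZIP factor, by 0.68 ± 0.13, and Glul, glutamine synthetase, by 0.44 ± 0.10. Pdk4, the pyruvate dehydrogenase kinase induced by fasting, went the other way (-0.80 ± 0.20), with 9.55 and 9.51 against 8.64 and 8.06 in DCT/CNT. The list holds 8 genes that stand on other lists too, among them Per1 and Sgk1.

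The immediate early list was lower. Of 20 measured genes, 9 were lower and 1 higher at an unadjusted p under 0.05, the median was -0.23, and Fosb and Jun fell in the fit of 24 arrays. Jun read 12.69 and 12.60 against 12.21 and 12.00 in DCT/CNT, and 13.12 and 13.06 against 12.63 and 12.77 in CCD, a difference of -0.47 ± 0.09. The call for Jun was lost without each single pool in turn. Fos differed by -0.49 ± 0.12 and Ier2, another rapidly induced gene, by -0.47 ± 0.13.

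In the amino acid response list, which holds targets of ATF4, 5 of 16 genes were higher and 0 lower at an unadjusted p under 0.05, with a median of 0.39 in DCT/CNT and 0.10 in CCD. Chac1 rose. Slc7a11, the cystine transporter, was higher by 1.11 ± 0.33 from low values, with CCD ZT12 pools at 6.28 and 4.65. Nupr1, a stress-induced nuclear protein, was higher by 0.72 ± 0.19 and Psat1, an enzyme of serine synthesis, by 0.48 ± 0.16. The unfolded protein list showed 1 higher and 5 lower of 20. Herpud1, a factor of endoplasmic reticulum degradation, rose by 0.53 ± 0.12, while the chaperones Sdf2l1 and Calr differed by -0.41 ± 0.09 and -0.31 ± 0.09. The heat shock list had 3 higher and 0 lower of 18. Its members Hsph1 and Dnajb4 were higher by 0.25 ± 0.08 and 0.24 ± 0.09.

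The cholesterol synthesis list had 0 higher and 3 lower of 15 at an unadjusted p under 0.05, with a median of -0.14. In 8 of the 15 the ZT12 pools of DCT/CNT were lower without overlap, where 15.6% of all genes were. Insig1, the sterol sensor, differed by -0.55 ± 0.13. The fatty acid oxidation list had 2 higher and 1 lower of 18, and its members Acot2, an acyl-CoA thioesterase, and Ehhadh, a peroxisomal enzyme, differed by -0.33 ± 0.09 and 0.60 ± 0.20. In the hypoxia and glycolysis list, 2 of 18 were higher, Hk2, a hexokinase, by 0.65 ± 0.18 and Ak4, a mitochondrial adenylate kinase, by 1.42 ± 0.42. As for the proximal tubule mean, pool 1 was the higher of the CCD pools of ZT8 for Ak4 (9.52 and 8.14). Of 32 oxidative phosphorylation genes and 15 ribosomal protein genes, 0 passed an unadjusted p under 0.05 in either direction, with medians of -0.02 and -0.06.

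The list of xenobiotic metabolism and PAR bZIP targets had 4 higher and 0 lower of 14. Apart from Ugt2b34, described with the segments, these were Sult1d1, a sulfotransferase (0.61 ± 0.16), Cyp7b1, an oxysterol hydroxylase (0.29 ± 0.08), and Alas1, the first enzyme of haem synthesis (0.28 ± 0.11).

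Markers of cells that surround tubules gave different counts by list and segment. Of 12 endothelial genes 0 were higher and 3 lower at an unadjusted p under 0.05, and the medians were -0.02 (DCT/CNT) and -0.32 (CCD). By segment, 0 were lower in DCT/CNT and 5 in CCD (3.67% and 3.58% of all genes). Cdh5, the endothelial cadherin, differed by -0.32 ± 0.11, and Plvap, of fenestral diaphragms, by -0.38 ± 0.13. The mean of the endothelial list ranged from 7.80 to 8.07 in the CCD pools of ZT8 and from 7.57 to 7.65 in those of ZT12. Of 15 leukocyte genes, 1 was higher and 3 were lower. Lyz2, lysozyme of macrophages, differed by -0.79 ± 0.22 and Cd52 by -0.58 ± 0.17. Of 12 vascular and stromal genes, 0 were higher and 1 lower, with medians of 0.03 (DCT/CNT) and -0.17 (CCD). None of 5 podocyte genes passed in either direction, and their medians were 0.27 and -0.21. Of the other lists, insulin and feeding had 4 higher and 1 lower of 18, S phase 2 and 0 of 20, mitosis 1 and 0 of 18, and erythrocyte 0 and 1 of 3.

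Each segment alone gave few calls. In DCT/CNT, 1123 genes (6.17%) were higher and 668 (3.67%) lower at an unadjusted p under 0.05, and 2 genes (0.0110%) were called in the limma fit of 8 arrays with 4 group means, both higher at ZT12. Ugt2b34, a glucuronosyltransferase from a family of close paralogues, read 3.79 and 3.60 at ZT8 and 6.80 and 6.83 at ZT12, a difference of 3.11 ± 0.18 (adjusted p = 0.00732). In CCD it read 3.50 and 3.45 against 3.24 and 3.73, so it stayed at the lower end of the scale there. Pvalb was higher by 3.36 ± 0.27 (adjusted p = 0.0390), and Slc12a3 and the proximal tubule mean were also higher in those pools. With that mean as a covariate 0 genes were called. In DCT/CNT the mean itself separated the times, with 7.07 to 7.11 at ZT8 and 8.42 to 8.44 at ZT12. The covariate fit therefore cannot tell a step in DCT/CNT from a difference in that mean, and its count says nothing about single genes. Ugt2b34 and Pvalb were not called when all 24 arrays set the spread (adjusted p = 0.0757 and 0.171 in limma).

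The fit of 24 arrays called 9 other genes (0.0495%) in DCT/CNT, 6 higher (0.0330%) and 3 lower (0.0165%). Those higher were Cry1, Usp2, Coq10b, Nampt, Capn6 and Cib1. Capn6, a calpain-like protein without protease activity, read 4.58 and 5.28 against 6.58 and 6.33 in DCT/CNT and 5.01 and 5.20 against 4.97 and 4.56 in CCD. Its pools were thus higher at ZT12 in DCT/CNT and lower in CCD without overlap, as for 4.07% of all genes. The other Capn6 probe set gave 0.09 in DCT/CNT and -0.09 in CCD, so the rise rests on the probe set kept. Cib1, a calcium and integrin binding protein, read 7.09 and 7.04 against 8.17 and 7.91 in DCT/CNT and 8.38 and 8.22 against 8.41 and 8.31 in CCD. Over both segments its most variable probe set gave -0.013, so its rise of 0.52 rests on the probe set kept. Those lower were Avpr1a, Armcx1 and Mbip, a binding partner of a MAP kinase kinase kinase, which read 7.22 and 6.97 against 6.21 and 6.31.

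In CCD alone, 0 genes were called in the limma fit of 8 arrays, 1078 genes (5.93%) passed an unadjusted p under 0.05 (2.34% higher and 3.58% lower), and the smallest adjusted p was 0.0861. The fit of 24 arrays called 1 (0.00550%), Ctsw, a cathepsin of cytotoxic lymphocytes, which read 5.16 and 4.81 at ZT8 and 3.95 and 3.95 at ZT12. In DCT/CNT, Ctsw lay between 4.22 and 4.37 in all 4 pools.

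A call in one segment does not show that the segments differ. The difference of the steps, DCT/CNT minus CCD, was called for 0 genes in the limma fit of 8 arrays, with 1103 genes (6.06%) at an unadjusted p under 0.05, and for 0 genes in the fit of 24 arrays. Its smallest adjusted p, 0.0807, belonged to Ugt2b34. For the main clock genes the interval of the difference was wide enough to hold sizeable differences. It ran from -0.52 to 0.70 for Per2 and from -0.62 to 0.98 for Cry1.

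The step was then set against the step into lights on, from ZT20 to ZT0, which uses 8 other arrays. In the limma fit of 24 arrays the steps differed for 97 genes (0.533%), 55 with a positive (0.302%) and 42 with a negative difference (0.231%), and 46 of them (0.253%) differed at least 2-fold. All 55 were higher at ZT12 than at ZT8 and lower at ZT0 than at ZT20, and all 42 were the reverse. Since genes were selected on the difference, opposite signs are favoured by the selection. The step into lights on called 0 genes by itself.

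Per2 showed a difference of steps of 2.62 (adjusted p = 0.000792 in limma). This was its rise of 1.31 into lights off minus its change of -1.31 into lights on. Npas2 had -3.13, Cry1 2.01, Usp2 1.56 and Tsc22d3 1.32. Avpr1a had a difference of -0.74 that came almost wholly from the step into lights off, since its step into lights on was 0.05. Of the immediate early list, 5 of 20 genes were among those with a negative difference, and Fosb, for which the steps were -1.19 and 1.01, had -2.20. Of the clock repressors, 4 had a positive difference, and Nr1d1 alone among them had a negative one (-1.39).

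**Figure D4:**
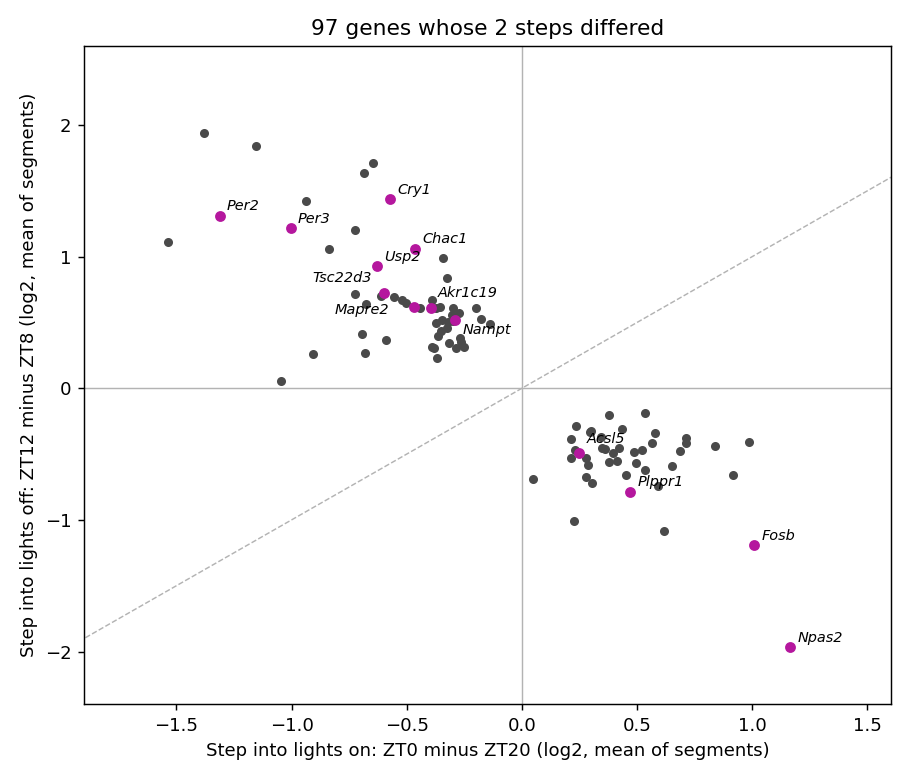
Step into lights off (ZT12 minus ZT8, vertical) against step into lights on (ZT0 minus ZT20, horizontal), both in log2 units as the mean of the segments, for the 97 genes whose steps differed in the limma fit of 24 arrays; the dashed line marks equal steps. The genes lie in the quadrants of opposite sign, on which the selection bears, with Per2 at 1.31 and -1.31 and Npas2 at -1.97 and 1.16.

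The 97 calls were also open to single pools and to markers. They numbered 63 without pool 2 of DCT/CNT ZT0, 62 without pool 2 of CCD ZT0, 56 without pool 2 of CCD ZT20 and 32 with the proximal tubule covariate. With equal array medians 121 genes were called, 56 positive and 65 negative, so the excess of positive differences held for the deposited scaling and not for that one.

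Over the 6 times, several of these genes had their highest or lowest mean at ZT8 or ZT12 in both segments. They were called for a difference between ZT8 and ZT12, which favours extreme means at these times. Not all extremes fell there: Klf11, Armcx4, Plppr1 and Prkab1 were highest at ZT4 in both segments. Group means of Cry1 were lowest at ZT8 (6.48 in DCT/CNT and 7.53 in CCD) and highest at ZT20 (9.24 and 10.03). Those of Fosb were highest at ZT8 (10.78 and 10.81) and lowest at ZT12 (9.50 and 9.71). Avpr1a was lowest at ZT12 in both segments (11.35 and 11.81), as was Arntl (4.35 and 4.37). Tef and Usp2 were highest at ZT12 in both, whereas Per2 and Nampt went on to their highest means at ZT16. Chac1 was lowest at ZT8 in both segments, but its highest mean came at ZT12 in DCT/CNT (5.71) and at ZT20 in CCD (5.36). With 2 pools per mean, neighbouring means can change order within their spread. Per2 at ZT12 and ZT16 is such a case, with DCT/CNT pools at 9.21 and 8.97 and at 9.60 and 8.92.

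**Figure D5:**
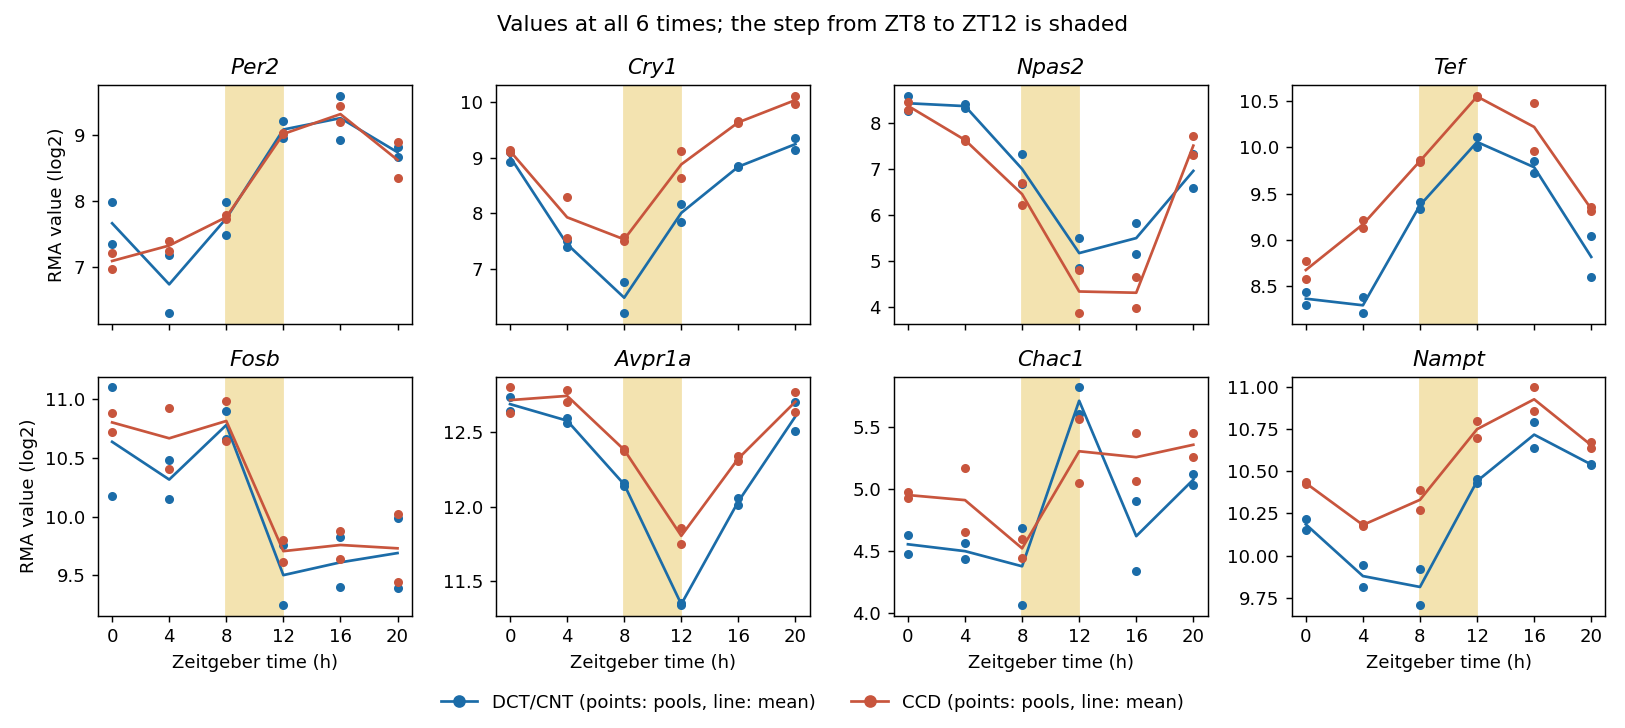
RMA values (log2) of 8 genes at the 6 zeitgeber times in DCT/CNT (blue) and CCD (red), with points for pools, lines through the means of 2 pools and the step from ZT8 to ZT12 shaded; each panel has its own axis. Avpr1a was lowest at ZT12 in both segments (11.35 and 11.81), and Fosb was highest at ZT8 and lowest at ZT12.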

How the data were processed

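Gene expression was measured on 24 oligonucleotide arrays, of which the 8 of ZT8 and ZT12 form the comparison. The deposited values are log2 RMA signals of 45101 probe sets (RMA per the submitters' processing notes, its version not given in the sources used here). Of these, 34958 carried 1 gene symbol, 932 several and 9211 none. For each of 18194 genes the single-symbol probe set with the highest mean over the 24 arrays stood for the gene, and dim genes were not filtered. Precision is limited by the number of arrays.

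Groups were taken from the labels. The main fit (limma 3.58.1, R 4.3.3, lmFit and eBayes) used the 8 arrays with time and segment as terms. Each segment and the segment difference came from 4 group means, and the step into lights off minus the step into lights on from 12 group means over 24 arrays. P-values were adjusted by Benjamini-Hochberg over all genes and called under 0.05. The members, gene lists and tests were chosen with earlier results of these data known. Named genes were the 15 largest changes each way among called genes without overlap of pools in either segment, all clock genes on the lists, up to 4 genes per other list by adjusted p, up to 8 per segment and direction, and up to 10 for the tests of differences. Since the main fit called 0 genes over both segments, the first part was applied to the calls of the fit of 24 arrays, after their values were seen. Left out of ranked choices were symbols starting with Gm and a digit or with LOC, and symbols ending in Rik. Symbols that are accession numbers and olfactory and vomeronasal receptor genes were left out as well.

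Alternatives were the replicate block, the scaling, a filter on dim genes, the choice of probe set, intensity trend, robust and weighted fits, marker covariates and leaving out each array. No batch or date is given by the labels used here.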

Additional observations from a re-analysis of the deposited data

Results flagged for a closer look

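The step into lights off differed from the step into lights on for 97 genes by a test of the difference itself (limma, 24 arrays). The 10 with the smallest adjusted p are given as the first step minus the second, in log2 units. Positive values were 1.56 for Usp2, 1.005 for Akr1c19, 2.01 for Cry1, 2.62 for Per2, 1.08 for Mapre2, 1.32 for Tsc22d3 and 0.81 for Nampt. Negative values were -3.13 for Npas2, -1.26 for Plppr1 and -0.74 for Acsl5.

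For 3 genes named above, both ZT12 pools lay on one side of the ZT8 pools in DCT/CNT and on the other side in CCD. The step in DCT/CNT minus the step in CCD was 0.47 for Btrc, -0.89 for Rorb and 1.86 for Capn6. Over all genes, 4.07% were higher in DCT/CNT and lower in CCD in this sense, as Btrc and Capn6 were. None of the 3 was called by the limma test of the segment difference over all genes. The other Capn6 probe set gave steps of 0.09 in DCT/CNT and -0.09 in CCD.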

How the results depend on the processing

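Calls over both segments in the limma fit of 8 arrays numbered 0. They were 68 with all 24 arrays, 26 with an intensity trend, 12 with genes of mean under 5 left out, 9 with the mean of probe sets, 8 with equal array medians, 7 with array weights, 6 with cyclic loess, 2 with quantile normalisation and 0 to 1 without single pools. In DCT/CNT, 2 calls became 9 with 24 arrays, 10 with the trend, 8 with the mean of probe sets, 1 with array weights, 0 with dim genes left out, 0 with the proximal tubule covariate and 0 to 2 without single pools. In CCD, 0 became 1 with 24 arrays, with the trend and with dim genes left out, and 2 with the mean of probe sets and with array weights. For the segment difference, 0 became 1 with quantile normalisation and with the trend, and 0 to 1 without single pools. For the difference of the steps, 97 became 146 with the mean of probe sets, 212 with the trend, 32 with the covariate, 46 with a 2-fold minimum added and 56 to 136 without single pools. Alternatives chosen after seeing the data, on the fit of 24 arrays, called 14 with the proximal tubule covariate, 12 with 3 marker covariates, 67, 89 and 86 with equal medians, quantile and cyclic loess normalisation, and 93 with dim genes left out. Without pools 1 and 2 in turn they called 55 and 110 (DCT/CNT ZT8), 47 and 37 (DCT/CNT ZT12), 51 and 13 (CCD ZT8), and 28 and 72 (CCD ZT12).

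The labels do not say that pool numbers mark shared animals, and the numbers were not treated as pairs. Between the 4 groups the correlation of pool 1 minus pool 2 across genes ran from -0.025 to 0.124. With the replicate block the counts were 0 over both segments, 1 in DCT/CNT, 87 for the difference of the steps and 57 with all 24 arrays.

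Some values of named genes over both segments changed sign. With the mean of probe sets they were -0.097 for Bhlhe41, -0.067 for Btrc and -0.088 for Lonrf3, and with the most variable probe set -0.074 for Btrc, -0.013 for Cib1 and -0.27 for Lonrf3. The proximal tubule covariate gave 0.087 for Csnk1d with 8 arrays, and -0.12 for Btrc and -0.27 for Umod with 24. The 3 marker covariates gave 0.046 for Csnk1d, 0.22 for Rorb and -0.099 for Slc12a3. Without pool 1 of DCT/CNT ZT12, Nfil3 was 0.32 with 8 arrays (range without single pools -0.47 to 0.32) and 0.39 with 24, and without pool 1 of CCD ZT8, Lonrf3 was -0.052 with 24. Of the named genes called in the fit of 24 arrays over both segments, Cib1 alone changed sign. The cause of these changes was not tested. Limits are 2 pools per group, pools whose animals are not described, markers that moved with time and the absence of a batch label.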
